A study of Mus musculus with 6 samples.

Results

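The regions described here are 11342 stretches of mouse chromatin that were accessible in embryonic stem cells (ESCs) and in both kinds of expanded potential stem cells (EPSCs) and that lie away from promoters. They were chosen by the measured peaks themselves. Peaks of the 3 deposited lists on chromosomes 1 to 19 and X were pooled, peaks sharing at least 1 bp were merged, and a merged region was kept when it held a peak of every list and its midpoint was more than 1 kb from every start of a protein-coding transcript. That left 11342 of 65518 merged regions (17.3%), which is 22.4% of the 50641 distal regions and 52.1% of the 21752 regions with a peak in all lists. With only the widest 28965 peaks of each list, the length of the shortest list, the same rule gave 6536 regions. The other 10410 regions open in all states lay within 1 kb of a coding start and are called shared promoters. Coordinates are on mm9.

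ATAC-seq reads out open DNA through the Tn5 transposase, which can insert its adapters only where chromatin is accessible. ESCs were of the J1 line, of the 129SV strain, kept in serum and LIF with the GSK3 inhibitor CHIR99021 and the MEK inhibitor PD0325901. D-EPSCs were derived from these ESCs in N2B27 medium holding LIF, CHIR99021, dimethindene maleate and minocycline hydrochloride. L-EPSCs were derived from them with LIF, CHIR99021, PD0325901, A-419259, XAV939, JNK inhibitor VIII and SB203580. LIF and CHIR99021 were therefore common to the 3 states, and all cells go back to a single parental line. Each state had 2 libraries, which are technical replicates, but the files used here hold only 1 peak list per state, without values per library, so no replicate test was made. Intervals are 95% intervals for counting error only, and the depth behind the lists is unknown.

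Distal accessible regions include enhancers, which bind transcription factors and act on promoters at a distance, and insulator sites, where the CTCF protein helps to fold chromosomes into loops. In pluripotent cells many enhancers are bound by Oct4 and Sox2, often at adjoining sites, together with factors such as Nanog, Esrrb, Klf4 and Klf5. Accessibility marks where a factor could bind but does not say which factor is there or which gene is served.

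Sequences are shown first for the genes of core and naive pluripotency factors, because the factors themselves are the best-known regulators of this cell type. A region was assigned to the gene with the nearest coding start, and 58 members were assigned to these genes. Of the 58, 3 held the Oct octamer ATGCAAAT, the site of POU factors such as Oct4, within 200 bp of the midpoint. The octamer was chosen for display after its matches were seen. These sites follow with 40 bases on either side and the octamer in capitals, read along the strand of the motif.
Esrrb, chr12:87819950-87820037, plus strand: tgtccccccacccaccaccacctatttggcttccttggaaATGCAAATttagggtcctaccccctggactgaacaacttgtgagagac
Klf5, chr14:99739439-99739526, minus strand: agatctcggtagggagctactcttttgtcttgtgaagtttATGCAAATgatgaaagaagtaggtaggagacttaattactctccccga
Zfp281, chr1:138624438-138624525, plus strand: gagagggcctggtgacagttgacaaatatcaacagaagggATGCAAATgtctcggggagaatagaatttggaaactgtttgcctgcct

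The site at Esrrb, an orphan nuclear receptor of naive cells, lay in an intron 8.91 kb downstream of the nearest start. Its peak in ESCs was 182 bp wide, against 346 bp for D-EPSCs and 375 bp for L-EPSCs. The site assigned to Klf5, a Krüppel-like factor of the naive network, lay between genes 41.4 kb downstream. Its peaks were 470, 610 and 723 bp wide in the same order. The site assigned to Zfp281, a zinc finger protein that acts at the exit from naive pluripotency, lay between genes 103 kb downstream, with peaks of 571, 671 and 690 bp. In each of these 3 regions the ESC peak was the narrowest.

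CTCF sites were shown for the same genes, since CTCF was among the most frequent motifs of the regions. Of the 58 members 4 held a CTCF match, and the 3 nearest to a start are printed with the match in capitals.
Esrrb, chr12:87743837-87743928, minus strand: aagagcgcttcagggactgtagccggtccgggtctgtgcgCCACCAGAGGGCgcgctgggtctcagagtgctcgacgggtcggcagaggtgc
Nanog, chr6:122619522-122619613, plus strand: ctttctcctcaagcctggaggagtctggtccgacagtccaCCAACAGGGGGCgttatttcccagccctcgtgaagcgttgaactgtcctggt
Zfp281, chr1:138636249-138636340, minus strand: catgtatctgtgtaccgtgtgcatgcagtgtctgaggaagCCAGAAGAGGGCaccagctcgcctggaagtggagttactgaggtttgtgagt

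The CTCF match at Esrrb lay 18.5 kb upstream, in an intron of a coding gene. The match assigned to Nanog, a homeodomain factor of naive cells, lay between genes 37.9 kb upstream in a region of narrow peaks, 130 bp (ESC), 306 bp (D-EPSC) and 247 bp (L-EPSC). That of Zfp281 lay 115 kb downstream. It was farther from the start than the octamer site above, and its peaks of 182, 123 and 214 bp were narrower than those of the octamer site in every state.

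The composite element, at which an Oct4 and a Sox2 site adjoin, was found in 39 members and in none of the 58 members assigned to core and naive genes. The sites nearest to a coding start are therefore shown for other genes. They were chosen after their values were seen, by distance to the start, and the element is in capitals.
Gm10132, chr14:77650667-77650760, minus strand: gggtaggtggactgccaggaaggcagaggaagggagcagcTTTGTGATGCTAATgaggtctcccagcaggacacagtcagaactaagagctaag
Fkbp4, chr6:128395781-128395874, minus strand: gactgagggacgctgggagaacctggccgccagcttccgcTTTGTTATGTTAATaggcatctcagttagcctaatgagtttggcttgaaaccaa
Ezh1, chr11:101095606-101095699, plus strand: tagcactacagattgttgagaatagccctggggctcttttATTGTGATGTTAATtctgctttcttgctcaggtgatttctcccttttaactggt
Tbc1d4, chr14:101916310-101916403, minus strand: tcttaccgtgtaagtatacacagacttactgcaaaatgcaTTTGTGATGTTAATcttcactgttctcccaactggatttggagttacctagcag
Fam84b, chr15:60671499-60671592, minus strand: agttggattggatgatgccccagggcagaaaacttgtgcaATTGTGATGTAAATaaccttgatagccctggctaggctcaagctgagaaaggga
Klf13, chr7:71102094-71102187, plus strand: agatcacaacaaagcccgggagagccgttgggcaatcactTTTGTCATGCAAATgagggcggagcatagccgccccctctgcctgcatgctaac
Tet3, chr6:83371990-83372083, plus strand: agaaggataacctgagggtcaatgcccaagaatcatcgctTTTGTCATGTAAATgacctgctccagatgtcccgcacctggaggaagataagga

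The sites of Gm10132 and Fkbp4 were the nearest, at 1.41 and 7.31 kb. Among the other genes, Ezh1 encodes a Polycomb histone methyltransferase, Tet3 a methylcytosine dioxygenase and Klf13 a Krüppel-like factor. The region at Ezh1 lay 7.92 kb upstream, with peaks of 260 bp (ESC), 247 bp (D-EPSC) and 173 bp (L-EPSC). The region at Klf13 lay 18.4 kb upstream, with peaks of 685, 785 and 631 bp. Its composite element also held the octamer, so the motifs overlap there. The region at Tet3 lay in an intron 19.7 kb downstream and had peaks of 433 and 439 bp in ESCs and D-EPSCs but 118 bp in L-EPSCs. Members with the composite element lay a median of 69.8 kb from a coding start (31.9 to 110), against 22.7 kb for all members.

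Most of the regions were between genes or in introns. Of the 11342, 52.2% (51.3 to 53.1) lay between genes, 36.8% (35.9 to 37.7) in introns of coding genes and 2.58% in introns of non-coding genes. Coding sequence held 4.10% and untranslated parts of coding genes 2.70%. In genome windows placed every 25 kb away from peaks and starts, 59.7% (59.4 to 60.0) lay between genes, above the share of the members, while coding sequence held 1.16% and untranslated parts 1.41%. Compared with the 9721 distal regions open in both EPSC lists only, the share between genes was higher by 4.45 points (3.10 to 5.80). Against the 3209 distal regions of the ESC list only it was higher by 1.76 points, with an interval that included 0 (-0.197 to 3.72).

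The median distance to a coding start was 22.7 kb (21.9 to 23.3), and the middle of the distribution ran from 9.14 kb at the first quartile to 56.3 kb at the third. Regions between 5 and 20 kb made up 33.6%, those up to 5 kb 12.7%, and those over 500 kb 1.61%. Distal regions of the ESC list only lay farther away, at a median of 31.4 kb (29.9 to 33.4), and those of both EPSC lists only lay nearer, at 20.8 kb (20.1 to 21.6). The intervals of these 3 medians do not overlap. Upstream positions made up 47.5% (46.5 to 48.4) of the shared distal regions, 44.5% (43.5 to 45.5) of those of both EPSC lists only and 44.4% (42.7 to 46.1) of those of ESCs only.

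**Figure D1:**
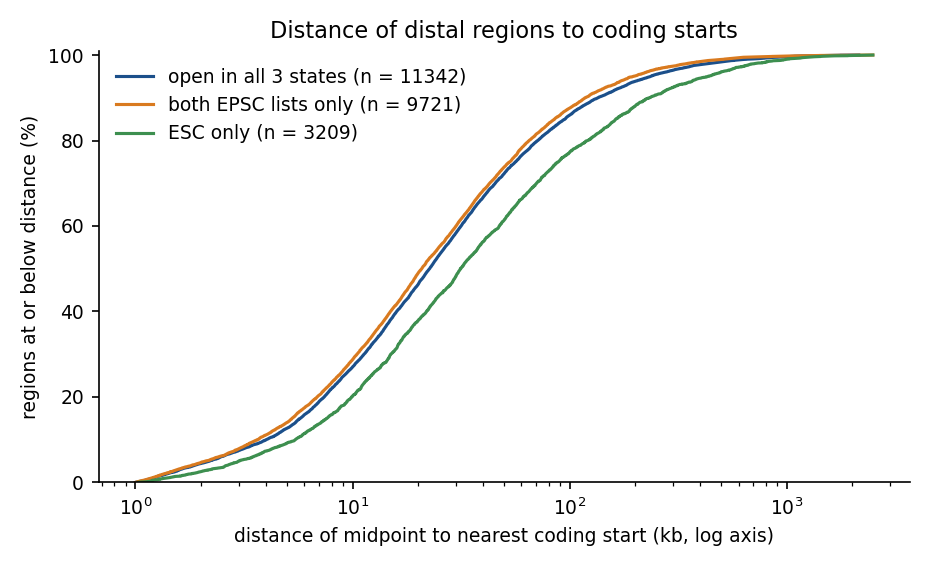
The curves give the percentage of distal regions whose midpoint lies at or below each distance (kb, log axis) from the nearest coding start, for regions open in all 3 states, in both EPSC lists only and in the ESC list only. The curve for ESCs only lies to the right, with a median of 31.4 kb against 22.7 kb for the regions open in all states.

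Composition differed between regions on either side of the limit of 1 kb. The 178 shared regions in the 250 bp just short of it, outside the set, had a median GC content of 60.5%, and the 147 members in the 250 bp just past it had 57.7%. Their CpG observed/expected ratios, which set the CpG count of a region against that of shuffled letters of the same composition, were 0.635 and 0.509.

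Over all members the median GC content was 51.9% (51.8 to 52.0) and the CpG ratio 0.265 (0.261 to 0.269). Shared promoters had 63.1% and 0.762. Distal regions of ESCs only were poorer in both, at 49.0% (48.8 to 49.3) and 0.181 (0.172 to 0.189). Distal regions of both EPSC lists only had slightly more GC, 52.7% (52.6 to 52.9). Their CpG ratio was 0.262 (0.258 to 0.266), with an interval that overlapped that of the members. Genome windows had a median GC content of 41.25% over 400 bp, where members had 51.75%.

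To ask which factor sites the regions share, 24 consensus motifs were searched without mismatch on both strands in the 400 bp around each midpoint. Motifs of fewer than 10 letters are spelled out and longer ones are given by name. Differences of shares carry intervals adjusted for 96 comparisons, 24 motifs against 4 sets. The sets differ in GC content as given above, and the part of GC content in the motif shares was not tested. A match is a stretch of letters and not a bound site.

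Of the insulator and repressor motifs, CTCF was found in 10.3% (1170 regions), against 1.65% of shared promoters and 1.22% of genome windows. It was less frequent than in distal regions of both EPSC lists only, where the share was 12.3% (difference -2.02 points, -3.55 to -0.501). It was more frequent than in those of ESCs only, at 7.67% (difference 2.65 points, 0.621 to 4.45). REST, a repressor of neuronal genes, had a match in 0.168% of members, in 0.391% of regions of both EPSC lists only, and in 0 of the 3209 regions of ESCs only. The adjusted intervals of both REST differences included 0.

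Among pluripotency motifs, the Sox site CATTGTT was found in 7.0%, the Oct octamer in 4.13%, the Klf site GGGTGTGGC in 2.23%, the Esrrb site TCAAGGTCA in 1.83%, the STAT site TTCCNGGAA in 1.78% and the TCF/LEF site CTTTGATC in 1.69%. The Tfcp2l1 motif was found in 0.185%, against 0.253% of genome windows and 0.405% of distal regions of ESCs only, and the adjusted intervals of both differences included 0. The composite element was found in 0.344%, which was 5.92 times the share of genome windows (0.0580%). The Klf, Esrrb and STAT sites were more frequent than in genome windows, which had 0.488%, 0.841% and 1.02%. Their differences were 1.74 (1.30 to 2.28), 0.993 (0.59 to 1.49) and 0.764 points (0.364 to 1.26). The octamer share exceeded that of genome windows (3.59%) by 0.538 points, with an interval that included 0 (-0.0988 to 1.27). The TCF/LEF difference from genome windows (1.57%) had an interval that included 0. The Sox site was less frequent than in genome windows, which had 8.16% (difference -1.16 points, -2.0 to -0.232). Over all motifs searched, 16 were higher than in genome windows, 2 were lower and 6 had an interval that included 0. At least 1 of the 8 pluripotency motifs was present in 2000 members (17.6%, 16.9 to 18.3), in 14.8% (14.6 to 15.1) of genome windows, in 16.1% of distal regions of both EPSC lists only and in 17.4% of those of ESCs only.

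Shared distal regions and distal regions of both EPSC lists only differed in few motifs. Of 24, 22 had an adjusted interval that included 0, and CTCF and the Klf site were lower in the shared regions. The Klf share was 2.23% against 3.08% (difference -0.845 points, -1.64 to -0.0770). The octamer share was 4.13% against 3.34%, a difference of 0.783 points (-0.134 to 1.69). Against distal regions of ESCs only, 6 motifs were higher, 2 were lower and 16 had an interval that included 0. The 2 lower ones were the TCF/LEF site, at 1.69% against 3.15% (-1.45 points, -2.77 to -0.431), and the YY1 site CAAGATGGC, at 0.961% against 1.78%. The 6 higher ones were CTCF and the GC-rich or CpG-holding motifs of AP-2 (GCCNNNGGC), Zfp281 (GGGGAGGGG), the Sp/Klf GC box (GGGGCGGGG), ETS (CCGGAAGT) and the E-box (CACGTG). The GC box was present in 5.91% of shared distal regions and in 1.68% of those of ESCs only.

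Shared promoters had another set of motifs. Of 24 motifs 9 were lower in shared distal regions, and the GC box showed 22.3% in promoters, AP-2 40.3% against 17.1%, and ETS 7.56% against 1.40%. The 10 motifs that were higher in shared distal regions included CTCF, the octamer (1.03% in promoters), the composite element (0.0192%) and the site of GATA factors, AGATAAG (3.76% against 1.08%). The GATA site was still rarer in shared distal regions than in genome windows, which had 6.02%.

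As a control, each motif was also searched with its letters in reversed order and not complemented. In shared distal regions 18 of 24 motifs were more frequent than their reversed form, among them CTCF (10.3% against 0.106%), the octamer (4.13% against 0.132%), the Klf site (2.23% against 0.317%) and the Esrrb site (1.83% against 0.485%). The GC box and the Zfp281 site read the same in reverse and have no such control. The sites of GATA, ETS and Grhl and the E-box were less frequent than their reversed forms. The reversed GATA site was found in 4.15% of shared distal regions, 1.14% of shared promoters and 6.35% of genome windows, so that it differed between these sets in the same directions as the site itself. The same held for reversed AP-2, at 5.57% against 40.5% in promoters and 1.62% in distal regions of ESCs only. It held for reversed TCF/LEF too, at 1.05% against 1.59% in distal regions of ESCs only. The reversed Sox site, at 2.96%, was below genome windows (4.42%) and above shared promoters (1.11%), as the Sox site itself was. The reversed ETS site was found in 1.79% of shared distal regions and 1.44% of shared promoters, and the reversed E-box in 9.34% and 8.12%, where the motifs themselves were more frequent in promoters. For 6 motifs, among them CTCF, the octamer and the Klf site, the reversed form holds a CpG that the motif does not. This limits the comparison. In genome windows, too, CTCF was at 1.22% against 0.0346% reversed, the octamer at 3.59% against 0.299% and the Klf site at 0.488% against 0.0713%.

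**Figure D2:**
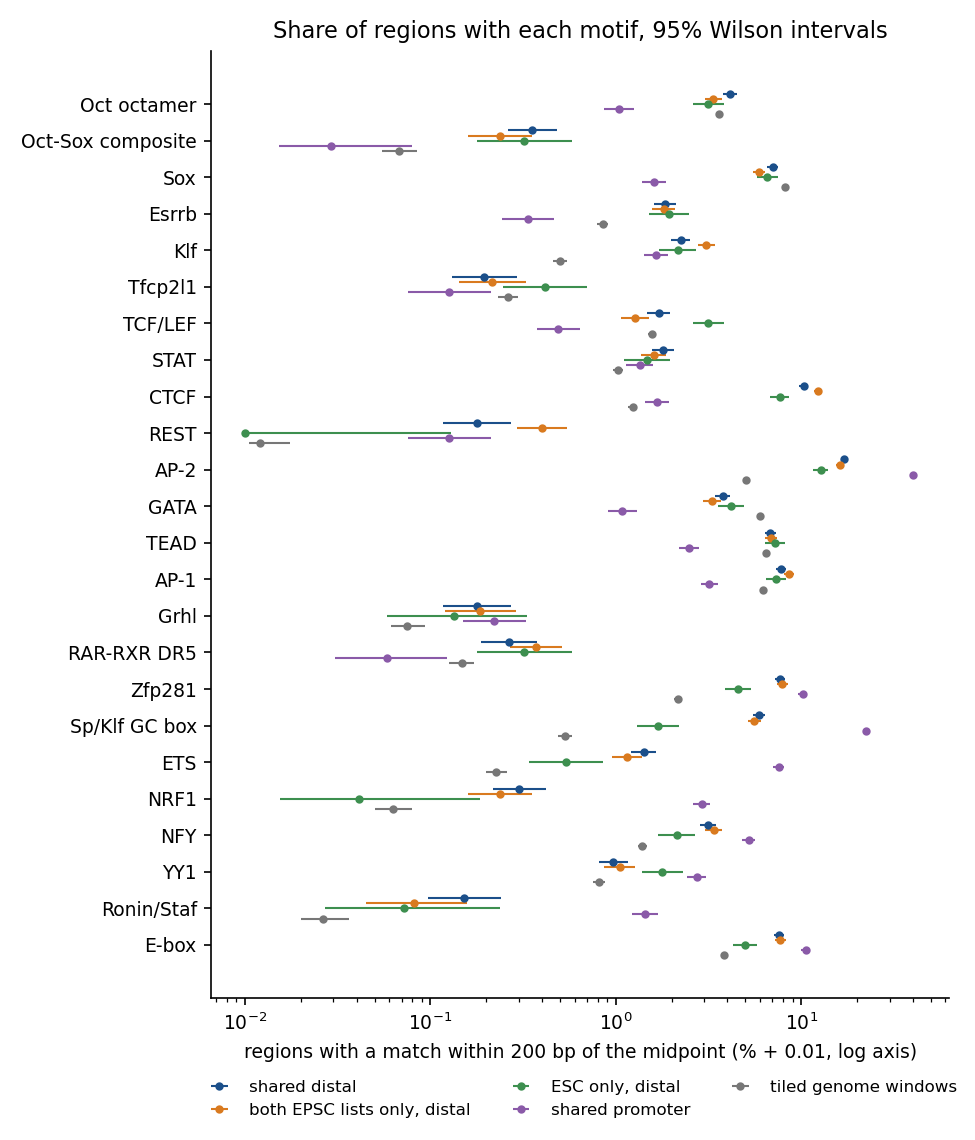
Each row is a motif and each dot the percentage of regions with a match within 200 bp of the midpoint (0.01 added, log axis), with 95% Wilson intervals that are not adjusted, for 4 sets of regions and for tiled genome windows. CTCF is at 10.3% in shared distal regions and 1.65% in shared promoters, and the GC box at 5.91% and 22.3%.

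The position of matches within the regions was compared by setting the 100 bp on either side of the midpoint against the stretch 800 to 1000 bp away. Of 24 motifs 14 were denser at the centre, 1 was less dense and 9 had an interval of the ratio that included 1, adjusted for 24 motifs. CTCF had 0.361 matches per kb at the centre and 0.0668 in the flank, a ratio of 5.40 (4.39 to 6.64). The GC box had a ratio of 5.33 (4.10 to 6.92), the composite element 4.46 (1.60 to 12.5), the Klf site 3.43 (2.33 to 5.07), the NFY site CCAATCAG 3.30 (2.36 to 4.62) and the octamer 2.08 (1.61 to 2.68). The Sox site had a ratio of 1.19 (0.989 to 1.43). The GATA site was less dense at the centre, with a ratio of 0.675 (0.530 to 0.859). GC content moved with position as well, from 45.4% in the flank to 53.0% at the centre, and its part in these ratios was not tested.

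**Figure D3:**
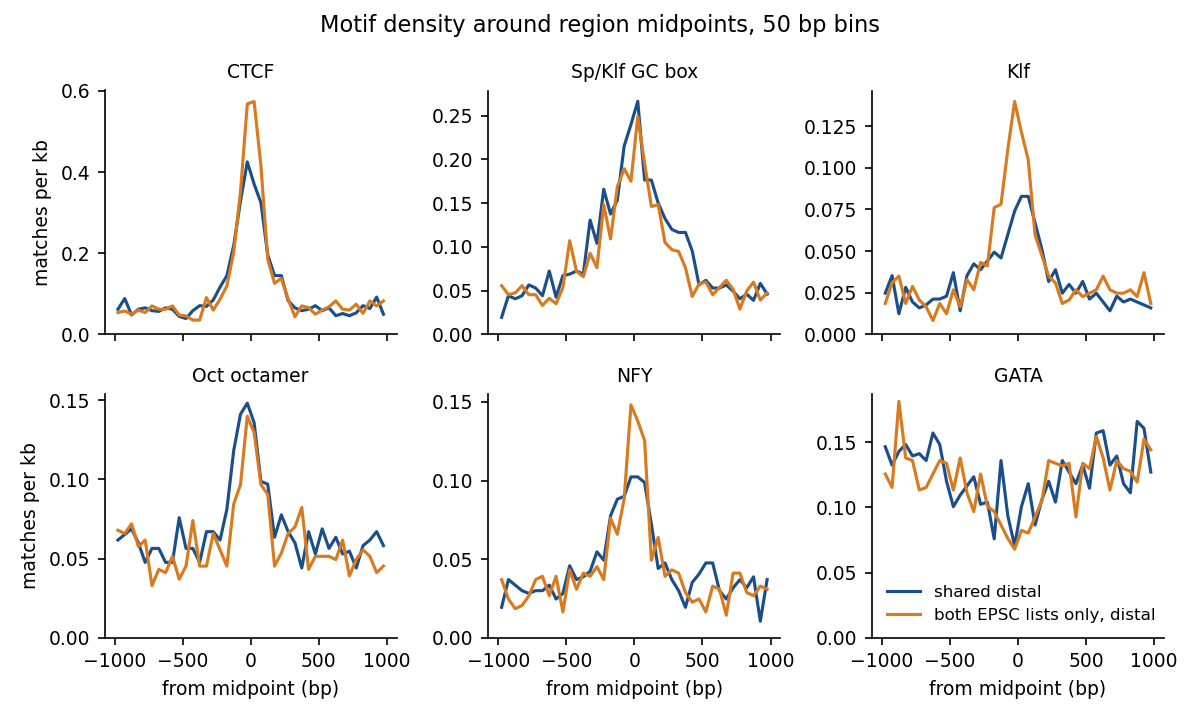
Matches per kb are plotted in 50 bp bins against the distance from the midpoint (bp) for 6 motifs, in shared distal regions and in distal regions of both EPSC lists only. In shared distal regions CTCF rises from 0.0668 per kb in the flank to 0.361 at the centre, while GATA falls from 0.142 to 0.0957.

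Members with CTCF and members with the octamer differed in width and distance. Those with a CTCF match were narrow, with a median merged width of 426 bp against 566 bp for all members, and lay a median of 17.8 kb (16.3 to 19.1) from a start. Members with the octamer had a median width of 548 bp and lay 31.7 kb (26.7 to 38.7) away. Both motifs occurred in 20 members (0.176%), where the product of their shares is 0.426%. Of all members 4274 (37.7%) held none of the 24 motifs.

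A CpG-rich minority was found among the regions. With limits of 200 bp of width, 50% GC and a CpG ratio of 0.6, 1149 members (10.1%, 9.59 to 10.7) were CpG-rich, against 81.3% of shared promoters, 6.82% of distal regions of both EPSC lists only and 1.25% of those of ESCs only. CpG-rich members lay nearer to coding starts, at a median of 11.8 kb (10.2 to 13.2) against 23.9 kb (23.2 to 24.6) for the rest, and 26.1% of them were in exons, against 6.39%. The GC box was found in 17.2% (15.2 to 19.5) of them and in 4.63% of the others, ETS in 4.44% and 1.06%, and CTCF in 4.87% and 10.9%. The GC box and the ETS site hold a CpG themselves, so the choice of these members by GC and CpG content favours both motifs, and their shares are a description. The composite element was found in 0 of the 1149 and the octamer in 2.00%, against 4.37% of the others.

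Some of the regions lie at annotated starts that the rule did not count. A start of another annotated transcript was within 1 kb of 780 members (6.88%, 6.43 to 7.36), and among CpG-rich members the share was 19.8% (17.6 to 22.2). Of the 780, 311 were starts of other transcripts of protein-coding genes, 182 were lincRNAs, 131 were processed transcripts and 28 were microRNAs. An annotated microRNA start is that of the short precursor and need not be where transcription begins. The microRNA examples were chosen after their values were seen. A region 320 bp from the start of Mir302b, of the miR-302 cluster that is active in pluripotent cells, had peaks of 328 bp (ESC), 169 bp (D-EPSC) and 310 bp (L-EPSC). A region 322 bp from Mir210, a microRNA induced by low oxygen, had peaks of 397, 665 and 780 bp.

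The regions were unevenly spread over genes. Of 22348 coding genes 31% had at least 1 member nearest to their start, and 48.8% had at least 1 within 50 kb. Gene lists below were compared with those shares by count only, because a gene with distant neighbours collects more regions. Counts of members per gene, and statements that a gene had none, refer to the nearest start unless 50 kb is named. Up to 4 genes with most members are named in each list, and genes with equal counts were taken in alphabetical order, so others in a list can have as many as the last one named. Within 50 kb of a start a member was found for 8 of 8 core factors and 12 of 14 naive factors. The same was true for 14 of 14 genes listed for the LIF, Nodal and BMP pathways. Formative and primed genes had a member in 8 of 12, trophoblast regulators in 8 of 9 and primitive endoderm regulators in 3 of 8. The counts were 10 of 13 for germ layer regulators, 3 of 6 for two-cell genes, 10 of 12 for Polycomb genes, 4 of 6 for retinoid receptors and 9 of 12 for housekeeping genes.

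All 8 core pluripotency factors had a member, with a median of 2 and 23 regions in all, while the median over all coding genes was 0. Zfp281 had 8, Sox2 5, Nanog 3 and Pou5f1, the gene of Oct4, 2. Within 50 kb of a start the order was another, with 4 at Nanog, 3 at Pou5f1, 2 at Zfp281 and 1 at Sox2. The nearer region of Pou5f1 lay 1.52 kb upstream of the start and had peaks of 436 bp (ESC), 1437 bp (D-EPSC) and 1363 bp (L-EPSC). The farther one lay 15.5 kb upstream with peaks of 176, 266 and 234 bp. Both had the narrowest peak in ESCs. Nanog had a region 4.51 kb upstream with peaks of 729, 1213 and 1023 bp, the widest of its 3 in every state. The regions of Sox2 were spread from 73.65 kb upstream to 145.5 kb downstream, and a region 111 kb downstream had peaks of 341, 425 and 422 bp.

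Of the 14 naive factors 12 had a member (85.7%), and Nr0b1 and Stat3 had none. Esrrb had 6, Klf5 and Tcl1 5 each, and Tfcp2l1 4. Within 50 kb Esrrb had 5, Klf5 and Tcl1 3 each and Tfcp2l1 2. Of the 6 regions of Esrrb 5 lay in introns. The region 31.9 kb downstream of an Esrrb start held the Esrrb site itself and had peaks of 418 bp (ESC), 751 bp (D-EPSC) and 589 bp (L-EPSC). The 5 regions of Tcl1, an activator of Akt kinase, all lay upstream, between 2.11 and 114 kb. The farthest was CpG-rich, with peaks of 306, 1447 and 778 bp.

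**Figure D4:**
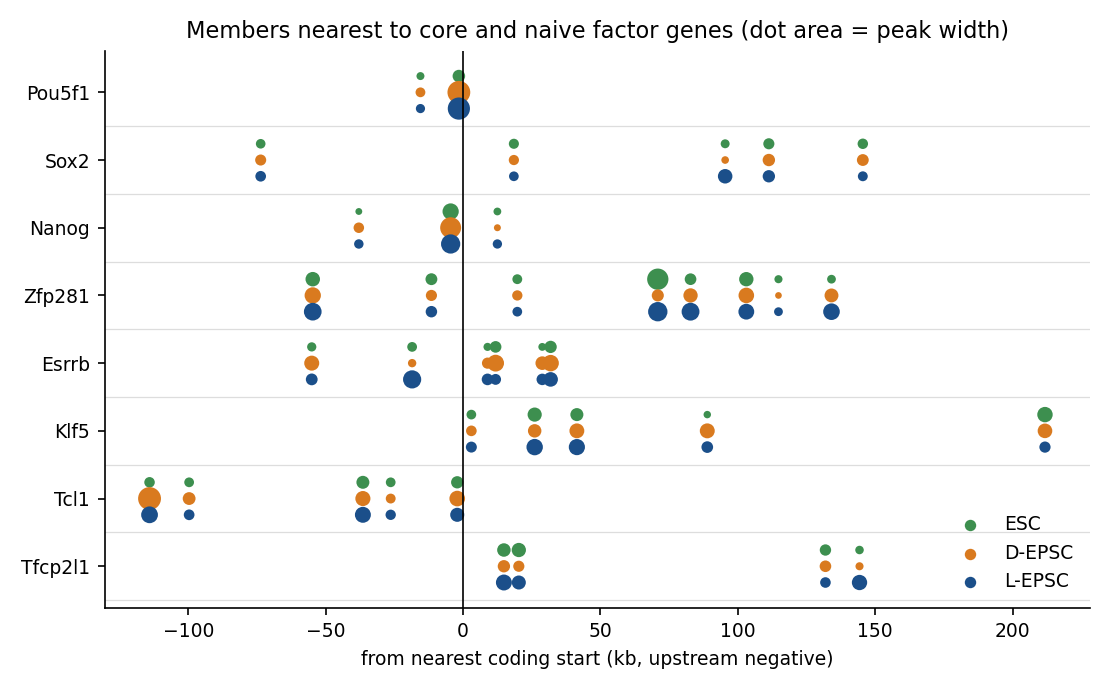
Members nearest to 8 core and naive factor genes are drawn at their distance from the nearest coding start (kb, upstream negative), with 1 dot per state whose area is proportional to the peak width. At Pou5f1 the region 1.52 kb upstream has dots for 436 bp (ESC), 1437 bp (D-EPSC) and 1363 bp (L-EPSC).

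Genes listed for the LIF, Nodal and BMP pathways, which carry the signals that hold or release pluripotency, had a member in 14 of 14. The list also holds Spry2 and Spry4, feedback inhibitors of FGF signalling. Smad7, an inhibitor of TGF-beta signalling, had 8, and Bmp4, Il6st and Lifr had 3 each. Within 50 kb Smad7 had 3. Il6st and Lifr encode the subunits of the LIF receptor. A region of Il6st 12.4 kb upstream held an octamer and had peaks of 456 bp (ESC), 268 bp (D-EPSC) and 307 bp (L-EPSC). The region next to it, 10.95 kb upstream, was rich in GC (72.2%) and had peaks of 251, 702 and 515 bp, so the order of the states was turned around within the pair.

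Of 12 formative and primed genes 7 had a member (58.3%). Etv5, an ETS factor, had 5, Otx2, a homeodomain factor of the epiblast, 4, and the DNA methyltransferase genes Dnmt3a and Dnmt3b 2 each. Etv4, Fgf5, Pou3f1, Sox3 and Zic2 had none. The D-EPSC peak was the widest in all 4 regions of Otx2, for example 1334 bp against 297 bp in ESCs and 548 bp in L-EPSCs in the region 6.8 kb upstream.

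Trophoblast regulators had a member in 8 of 9 (88.9%), with none at Hand1. Tfap2c, the AP-2 factor of trophoblast, had 6, the homeodomain gene Cdx2 4, and Gata3 and Tead4 3 each. Within 50 kb Tfap2c had 2 and Cdx2 4. The 4 regions of Cdx2 lay from 2.42 to 13.9 kb downstream of the start. The nearest had peaks of 779 bp (ESC), 188 bp (D-EPSC) and 468 bp (L-EPSC), and the next, at 7.67 kb, had 362, 754 and 723 bp. No state had the widest peak throughout at Cdx2.

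Primitive endoderm regulators had a member in 5 of 8 (62.5%), with Dab2 at 4, Gata4 and Sox17 at 2 and Foxa2 at 1. Gata6, Pdgfra and Sox7 had none. The 4 regions of Dab2 lay between 255.1 and 404 kb upstream, and within 50 kb of a start 3 of the 8 genes had a member (37.5%), which is below the 48.8% of all coding genes. Germ layer regulators had a member in 7 of the 13 that were found in the annotation (53.8%), with 3 each at Mesp1, Neurog2 and T and 2 at Pax6. All 3 regions of Neurog2, a proneural factor, were CpG-rich.

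Two-cell genes, which are active in the cleavage embryo, had a member in 1 of 6 (16.7%). The single region, nearest to Dppa2, lay 6.94 kb upstream with peaks of 795 bp (ESC), 560 bp (D-EPSC) and 473 bp (L-EPSC). Dppa4, Tdpoz1, Zfp352, Zscan4c and Zscan4d had none by nearest start, but Dppa4 and Tdpoz1 each had 1 within 50 kb. The authors filtered reads by mapping quality, and mappability at these genes was not tested. With that measure the list had a member in 3 of 6 genes (50%), near the 48.8% of all coding genes. Of 12 Polycomb genes 9 had a member (75%), with Jarid2 at 6, Mtf2 at 4, Eed at 3 and Cbx7 at 1, and with Bmi1, Ring1 and Suz12 at none. Retinoid receptors had a member in 4 of 6, 2 each at Rara and Rxra and 1 each at Rarb and Rarg, with none at Rxrb and Rxrg. Housekeeping genes had a member in 5 of 12 (41.7%), with 3 at Eef1a1 and 1 each at Actb, Gapdh and Psmb2. Within 50 kb the housekeeping share was 75%, above that of all coding genes.

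Outside the lists, 14 genes had 9 or more members. The count was 24 at Gm15319 on chromosome 8, but only 7 of those had a centre of 31 bases that occurs once in the genome. Jmjd1c, a histone demethylase family gene, had 13, and Tns3 and Zfp36l1 had 12 each, all with single-copy centres. Within 50 kb these genes had 3, 3 and 5. Over all members 93.6% (93.1 to 94.0) had a single-copy centre.

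The regions were mostly isolated. When members with gaps of 10 kb or less were joined, 9259 (81.6%) stood alone and 2083 formed 958 clusters, of which 25 had 4 or more members. The cluster with most members had 9 and lay at Gm15319 (chr8:19942917-19990560), with 3 single-copy centres. A cluster of 5 at 4930467E23Rik had no single-copy centre. The other 3 clusters of 5 lay at Ier2 (chr8:87162677-87188264), at Mllt10 with A930004D18Rik and 2810030E01Rik (chr2:17948299-17978842), and between AU018091 and Nlrp12 (chr7:3193051-3222425).

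The cluster on chromosome 7 spanned 29.4 kb and contained the 7 annotated microRNA genes Mir290, Mir291a, Mir291b, Mir292, Mir293, Mir294 and Mir295, the miR-290 family that is characteristic of mouse ESCs. Its peaks had median widths of 404 bp (ESC), 726 bp (D-EPSC) and 626 bp (L-EPSC). Ier2, an immediate early gene, had medians of 393, 526 and 502 bp. The clusters of 4 were tied and were taken by the shortest span, a choice made after their values were seen, which gave Gm5146, Gm6483 with 4930467E23Rik, and Cdx2, whose 4 regions above formed 1 cluster of 12.3 kb.

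Chromosome 8 held 925 members, or 7.02 per Mb, while the other autosomes held between 3.34 and 6.24 with a median of 4.37. Counted over members with a single-copy centre it held 6.49 per Mb, against a median of 4.08. Per coding gene it held 0.855, against a median of 0.525. Distal regions of ESCs only were densest on chromosome 8 too, at 2.15 per Mb, and those of both EPSC lists only, at 5.47 per Mb, ranked 2 among the autosomes, whereas shared promoters, at 4.78 per Mb, ranked 5. The X chromosome held 0.960 members per Mb and 1.66 shared promoters per Mb. Copy number and mappability were not tested.

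Within the regions, the widths of the called peaks differed between the lists. Medians of peak width were 343 bp (ESC), 408 bp (D-EPSC) and 409 bp (L-EPSC), and 97% of the members had exactly 1 peak of each list. The bases covered in all 3 lists made up a median of 235 bp, or 45.7% of the merged width, and 154 members had no base in common. D-EPSC peaks were wider than ESC peaks in 63.1% of members and L-EPSC peaks in 63.7%, while D-EPSC peaks were wider than L-EPSC peaks in 50.2%. These widths come from the peaks that chose the regions and are given as a description. Depth of the libraries, which can move peak edges, is unknown and its part was not tested.

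Width ratios are given by kind of region, also as a description. The CpG-rich class was computed over the merged region, so the peaks compared also set that class. The median ratio of D-EPSC to ESC width was 1.35 (1.31 to 1.39) in CpG-rich members and 1.14 (1.13 to 1.16) in the others. For L-EPSCs the ratios were 1.26 (1.22 to 1.30) and 1.15 (1.14 to 1.17). Shared promoters had ratios of 1.35 in D-EPSCs and 1.27 in L-EPSCs, close to those of the CpG-rich members. Members with the octamer had 1.15 in both states, and members with CTCF 1.18 in D-EPSCs and 1.12 in L-EPSCs.

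**Figure D5:**
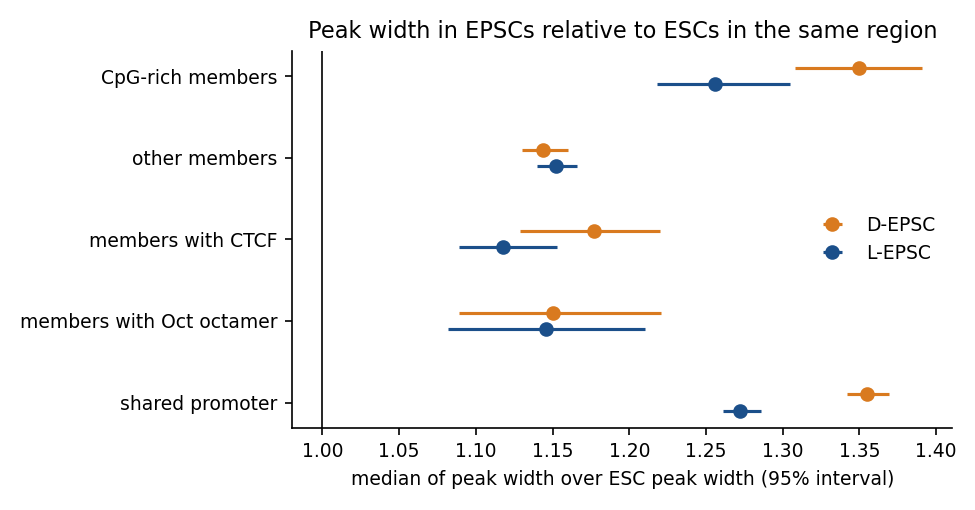
Dots give the median ratio of peak width in D-EPSCs or L-EPSCs to that in ESCs in the same region, with 95% order-statistic intervals, for kinds of shared distal regions and for shared promoters. CpG-rich members have ratios of 1.35 and 1.26, other members 1.14 and 1.15.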

How the data were processed

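ATAC-seq reads of 6 libraries were aligned by the authors to mm9 with Bowtie2 2.3.5. They were filtered with SAMtools 1.10, mapping quality included, and peaks were called with MACS at default settings. How the 2 libraries of a state were combined, and whether duplicates, Tn5 offsets or blacklisted regions were handled, is not given in the sources used here. Each deposited file is a list of peak starts and ends without height, score or p-value, so peak edges carry any effect of depth.

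Peaks were merged and annotated with the NCBIM37 sequence and GENCODE M1 in Python 3.11.15 (numpy 2.4.6, pandas 2.3.3, scipy 1.17.1). The scripts were tested on simulated data. Shares have Wilson intervals, differences Newcombe intervals, and medians order-statistic intervals. Genes named were, in each list, the 4 with most members (ties by symbol) and those with none where 5 or fewer. The members, gene lists and motifs were chosen with earlier results of these data known. Peaks on the mitochondrial genome, 2 in each list, were left out. One sequence among the composite elements nearest to a start is not reported here. Alternatives covered merging, distance, window, midpoint, cluster gap and uniqueness.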

Additional observations from a re-analysis of the deposited data

How the results depend on the processing

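Of 66 alternative values for 23 results, 49 stayed within the interval of the main value, within 1.5 times it for counts, or, for differences of motif shares, on the same side of 0 with the same call. No difference changed its direction. With the widest 28965 peaks of each list, as many as the shortest list holds, the rule gave 6536 shared distal regions in place of 11342, of which 53.7% lay between genes. With a distance of 2.5 kb from coding starts, 53.4% lay between genes, the median distance was 24.9 kb, the GC content 51.7% and the CpG ratio 0.260. The 400 bp window gave a GC content of 51.8%. A motif window of 200 bp, which holds fewer letters, gave 2.45% for the octamer, 1.35% for Klf, 0.979% for Esrrb, 6.85% for CTCF and 3.52% for the GC box. Centring on the bases common to all lists raised CTCF to 11.5%. Gaps of 5 and 20 kb gave 407 and 1583 clusters in place of 958. Within 50 kb of a start 10897 genes had a member, against 6928 by nearest start. Regions with 1 peak of each list had a median L-EPSC width of 403 bp. Chosen after seeing the data, single-copy centres gave 871 clusters and a density on chromosome 8 of 1.59 times the autosomal median, and leaving out 19 to 21 Mb of it gave 1.54 times, against 1.61 times for all members. No paired analysis was possible because the files used here hold 1 peak list per state, without values per replicate. The depth of the lists is unknown, and a missing peak does not show closed chromatin.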
